A study of Mus musculus with 12 samples.

Results

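Adam8, Adam9, Adam10, Adam15, Adam17 and Adam19 encode membrane-anchored metalloproteases of the ADAM family, and their transcripts were followed in myeloid cells of regenerating mouse muscle. The rows with these 6 gene symbols were taken from a count table of 24421 symbols. The set was chosen by its measured levels, because Adam8 was lower under a TNF-neutralizing antibody and Adam19 differed by the number that opens the sample titles, 40 or 46. Both of those differences are therefore given as descriptions, without a test, while the effects of genotype and its interaction with the antibody were tested. All 6 genes passed the filter on low counts, which kept 12981 genes.

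Messenger RNA was sequenced from cells that carried CD45 and CD11B, lacked LY6G and SIGLECF and excluded propidium iodide, and that the labels call macrophages. They were sorted from tibialis anterior muscle on day 5 of the repair that follows an injection of notexin, a myotoxin of snake venom. The 4 groups of 3 libraries were Ifngr1 null/null mice given anti-TNF antibody, Ifngr1 wt/null mice given anti-TNF antibody, null/null mice given an isotype antibody and wt/null mice given the isotype antibody, with daily injections. The product of Ifngr1 is the receptor chain to which interferon gamma binds. Every mouse thus carried at least 1 null allele, every muscle was injured, and neither wild-type nor uninjured animals were among the groups. The structure of the null allele, and the age and strain of the mice, are not given in the sources used here. Each group held 1 library with a title number of 46 and 2 with 40, and the meaning of that number was also not given. The labels do not say that each library came from a separate mouse, so the spread between libraries, on which every p-value rests, may be partly technical.

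ADAM proteases cut other membrane proteins close to the cell surface, a process called shedding, which releases cytokines, growth factors and receptor ectodomains. The catalytic domain holds a zinc ion between 3 histidines and uses a glutamate to activate water, and a prodomain keeps the enzyme silent until it is removed. ADAM17 is the main sheddase of TNF, ADAM10 cuts Notch and many adhesion molecules, ADAM8 is a protease of leukocytes, and ADAM19, also called meltrin beta, belongs with ADAM9 to a group first described in muscle cells.

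The feature that makes these 6 genes proteases is shown first, as the coding stretch of the zinc-binding site in the transcript with the longest coding sequence of each gene (GENCODE vM21, build GRCm38, the same build as the mm10 named by the submitters). Each stretch has 36 bases and runs 5′ to 3′ on the coding strand. Capitals mark the codons of the 3 zinc-binding histidines and of the catalytic glutamate.
Adam8: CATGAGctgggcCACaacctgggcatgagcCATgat
Adam19: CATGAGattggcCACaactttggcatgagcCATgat
Adam10: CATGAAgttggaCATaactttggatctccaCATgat
Adam17: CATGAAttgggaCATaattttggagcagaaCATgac
Adam9: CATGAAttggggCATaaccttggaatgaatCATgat
Adam15: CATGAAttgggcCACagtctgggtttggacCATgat

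The Adam8 and Adam19 stretches, from the 2 genes for which the set was picked, matched at 32 of 36 bases, the highest count among the 15 pairs. Adam8 and Adam17 matched at 21 bases, the lowest count. In the 12 encoded residues the closest pair was another, Adam8 and Adam9 with 11 identical, against 10 for Adam8 and Adam19. The Adam8 site lies on the minus strand at chr7:139987890-139987925 in exon 11 of 24 and covers codons 329 to 340. The Adam19 site lies on the plus strand at chr11:46125050-46125085 in exon 11 of 23. The sites of Adam9 (chr8:24990323-24990358) and Adam15 (chr3:89344777-89344812) are also in exon 11, that of Adam17 (chr12:21336729-21336764) is in exon 12, and that of Adam10 is split between exons 9 and 10 (chr9:70754296-70761588). A search of the longest coding sequences of other family members found the same residue pattern in Adam1a, Adam12, Adam28 and Adam33. The pattern was not found in those of Adam11, Adam22, Adam23 and Adamdec1. The search required every zinc-binding histidine, so a site with another zinc-binding residue would be missed.

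The whole genes lie at chr7:139978932-139992562 (Adam8), chr8:24949611-25016927 (Adam9), chr9:70678997-70780229 (Adam10), chr3:89338542-89349996 (Adam15), chr12:21323509-21373632 (Adam17) and chr11:46055992-46147343 (Adam19). Annotated genes overlap 4 of them on the opposite strand: Gm16201 at Adam8, 4731419I09Rik at Adam15, Iah1 and Gm22766 at Adam17, and Gm16033 and Gm16034 at Adam19. The strand setting of the counting was not given, so reads from the 2 strands cannot be told apart at these loci. Iah1, the only protein-coding gene among them, had 988 to 1523 counts per library, against 8315 to 10944 counts of Adam17.

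Sequencing depth was 23.2 to 29.9 M counts per library, where M is mega. Levels are in CPM, the counts of a gene per M counts of its library after TMM scaling. The members had 1825 to 10944 counts per library, which gives a counting error of 0.956% to 2.34% of a value; such errors cover counting alone. Ifngr1 had 83.3 to 119 CPM in null/null libraries and 226 to 250 CPM in wt/null libraries, so the genotype labels held in every library. Macrophage markers were all detected and summed to 28906 to 37142 CPM. Lyz2, which encodes lysozyme, averaged 16313 CPM and the complement gene C1qb averaged 3916 CPM. Markers of other cells were also present. Fibroblast markers summed to 329 to 1755 CPM and osteoclast-type markers to 530 to 4009 CPM. Dendritic cell markers summed to 82.4 to 333 CPM and muscle markers to 47.9 to 92.7 CPM. Lymphocyte markers summed to 98.5 to 203 CPM, of which Cd4 alone averaged 128 CPM. Endothelial markers summed to 20.4 to 51.7 CPM. Eosinophil and mast cell markers summed to 9.28 to 27.6 CPM, with the eosinophil peroxidase gene Epx at 0 counts in every library. A pair of libraries stood apart from the rest, null/null anti-TNF replicate 1 at 45.9 and wt/null anti-TNF replicate 2 at 54.2 on a first principal component that held 34.4% of the variance and had the other 10 between -20.8 and -3.47. Both are from anti-TNF mice and both are titled 40, so the members' estimates that move most without them are also given that way.

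**Figure D1:**
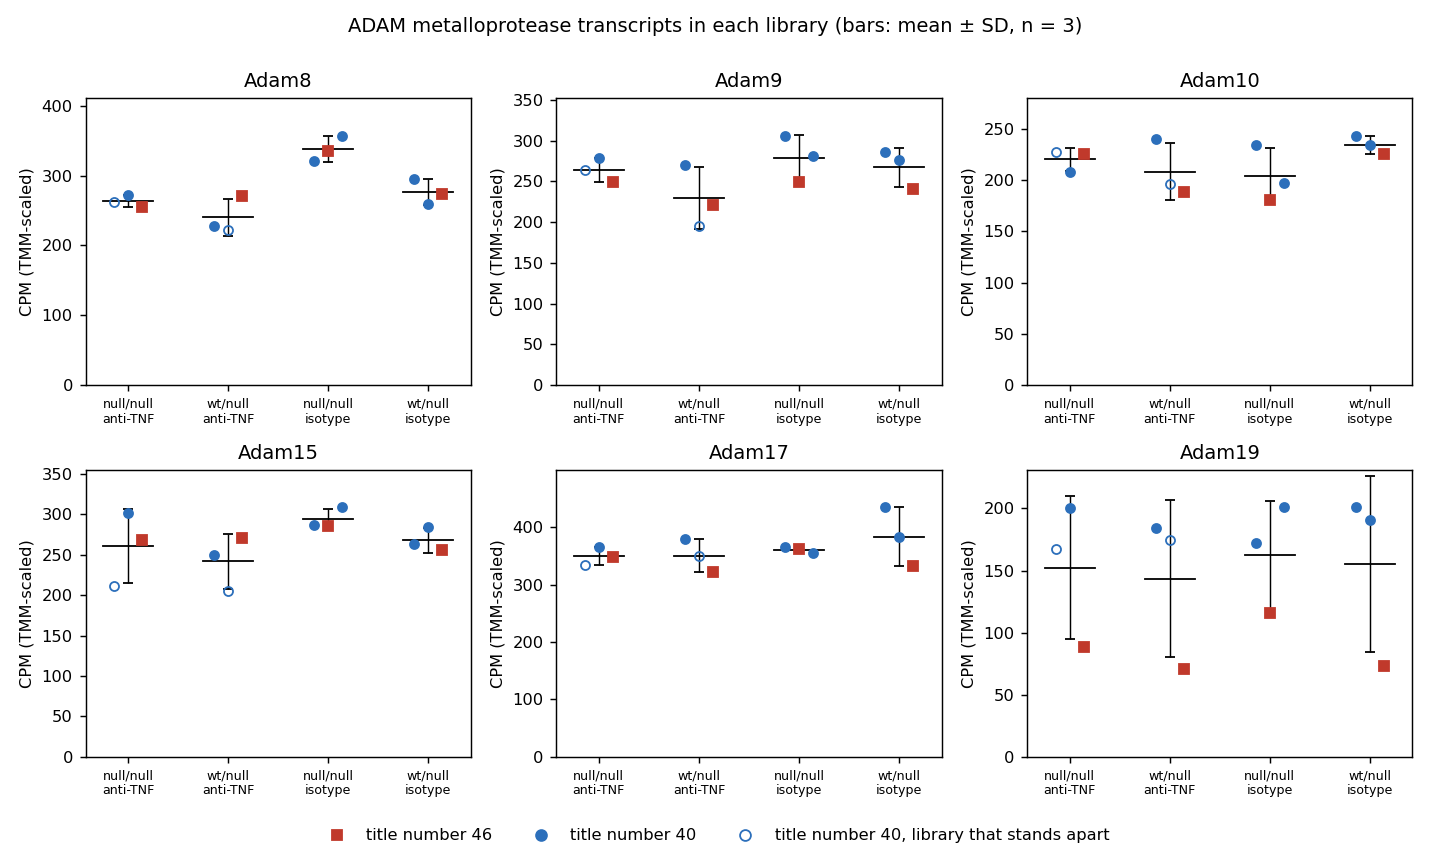
CPM (TMM-scaled) of each ADAM gene (vertical axis, linear, from 0) in the 12 libraries of the 4 groups (horizontal axis); squares are libraries titled 46, circles those titled 40, open circles the 2 libraries that stand apart, and bars the mean ± SD of 3 libraries. Adam8 in null/null isotype libraries lies between 321 and 357 CPM, above the 256 to 272 CPM of null/null anti-TNF, and the 4 squares of Adam19 lie between 70.9 and 115 CPM, below all circles.

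Per length of annotated exons, the 6 transcripts differed by a few fold. Adam9 averaged 63.1 ± 7.40 CPM per kb, Adam8 60.2 ± 8.87, Adam17 50.5 ± 4.13, Adam10 44.0 ± 4.38, Adam15 43.3 ± 5.24 and Adam19 21.6 ± 7.21 CPM per kb (SD, n = 12). The ranges of neighbours in this order overlapped except for the last pair, where Adam15 had 33.3 to 50.2 CPM per kb and Adam19 had 9.96 to 28.2 CPM per kb. Adam19 was also the most variable of the 6, with a coefficient of variation of 33.5% across all libraries, against 8.18% for Adam17, the steadiest. Within the 8 libraries titled 40 the coefficient of variation of Adam19 was 7.42%, the lowest of the 6 there.

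Adam8, which encodes a leukocyte protease that activates itself by removing its own prodomain, had lower levels in anti-TNF than in isotype mice, with ranges that separated in null/null and overlapped in wt/null mice. Null/null anti-TNF libraries had 262, 272 and 256 CPM of Adam8, against 321, 336 and 357 CPM in null/null isotype libraries. All 3 anti-TNF values lay below all 3 isotype values. Wt/null anti-TNF libraries had 228, 222 and 270 CPM, against 296, 259 and 274 CPM in wt/null isotype libraries, and here the ranges overlapped through the anti-TNF library titled 46. Averaged over genotype the log2 fold change of Adam8 was -0.28 ± 0.07 (SE), which is 17.7% lower under anti-TNF. It was -0.36 ± 0.10 in null/null and -0.20 ± 0.10 in wt/null mice. Of all tested genes, 4.55% were lower without overlap of the 3 and 3 null/null libraries, and 5.30% had a more negative averaged estimate than Adam8. Since the gene was picked for this contrast, nothing is read from these shares. In the same edgeR quasi-likelihood fit 0 of the 12981 genes passed a Benjamini-Hochberg adjusted p of 0.05 for the averaged antibody effect, and 949 (7.31%) had an unadjusted p below 0.05.

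The antibody estimate of Adam8 was also taken without the libraries that stand apart. Without both of them the averaged log2 fold change was -0.25 ± 0.08, and with 1 library left out in turn it lay between -0.33 and -0.25. Among the 8 libraries titled 40 alone it was -0.32 ± 0.09, and with title number as a term in the fit it was -0.28 ± 0.07. Because Adam8 was picked for this contrast in these same libraries, nothing is read from these refits. Marker genes of other cells also had other levels under anti-TNF, and much of this rested on the pair of libraries that stand apart, whose values are therefore given separately. The 10 osteoclast-type markers, led by the phosphatase Acp5 and the protease Ctsk, all had lower estimates (median log2 fold change -0.34), but without those libraries 9 of 10 were higher (median 0.05). They summed to 530 and 626 CPM in the libraries that stand apart, to 1141 to 3980 CPM in the other 4 anti-TNF libraries and to 1553 to 4009 CPM in isotype libraries. The 7 dendritic cell markers all had higher estimates (median 0.88), and 6 of 7 were higher without the pair (median 0.31). Their sums were 333 and 281 CPM in the pair, 108 to 135 CPM in the other 4 anti-TNF libraries and 82.4 to 121 CPM in isotype libraries. Of 8 lymphocyte markers tested, 7 were higher (median 1.70), while without the pair only 4 were left to test and 3 were higher (median 0.08). The sums of the 13 lymphocyte markers listed overlapped, at 104 to 174 CPM in anti-TNF and 98.5 to 203 CPM in isotype libraries. These sums were mostly Cd4, and 10 of the 13 averaged less than 1 CPM. Cd4 averaged 127 CPM in the pair, 128 in the other 4 anti-TNF libraries and 129 in isotype libraries. Klrb1c averaged 5.85, 4.69 and 4.50 CPM in the same order. Cd8a, named after its values were seen, averaged 4.32, 0.67 and 0.57 CPM. All 6 endothelial markers were higher (median 0.36), and 5 of 6 without the pair (median 0.13), with sums of 26.8 to 51.7 CPM in anti-TNF and 20.4 to 38.8 CPM in isotype libraries. The 4 eosinophil and mast cell markers tested were all higher with and without the pair (median 0.56 in both fits). Their list summed to 27.6 and 21.4 CPM in the pair, 11.2 to 21.9 CPM in the other 4 anti-TNF libraries and 9.28 to 16.4 CPM in isotype libraries. Kit averaged 17.7 CPM in the pair, 5.85 in the other 4 anti-TNF libraries and 4.63 in isotype libraries. Siglecf averaged 6.04, 8.12 and 7.09 CPM in the same order. Muscle markers were higher for 6 of 7 (median 0.42), and for 5 of 7 without the pair (median 0.30). Fibroblast markers were lower for 4 of 6 (median -0.17), while without the pair 4 of 6 were higher (median 0.13). Their sums were 463 and 329 CPM in the pair, 695 to 1755 CPM in the other 4 anti-TNF libraries and 989 to 1321 CPM in isotype libraries. Of 3 neutrophil markers tested, 2 were lower (median -0.85), and 3 without the pair (median -0.69). Macrophage markers were lower for 7 of 10 in both fits (median -0.07 and -0.06). In bulk RNA, fewer cells of a type and less RNA per cell cannot be told apart, and the part of these cells in the Adam8 difference was not tested.

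For genotype, the Adam8 estimate lay above 0 but did not pass correction over all genes. Under isotype antibody its 3 null/null values (321 to 357 CPM) lay above its 3 wt/null values (259 to 296 CPM). Under anti-TNF the null/null range (256 to 272 CPM) and the wt/null range (222 to 270 CPM) overlapped. Averaged over antibody the log2 fold change was 0.21 ± 0.07 (95% interval 0.07 to 0.36), or 15.9% higher, with an unadjusted p of 0.00781 and an adjusted p of 1.00 by edgeR. The estimate was 0.29 ± 0.10 under isotype antibody (interval 0.09 to 0.50) and 0.13 ± 0.10 under anti-TNF (interval -0.07 to 0.34), each with an adjusted p of 1.00 by edgeR. The interaction, the antibody effect in null/null minus that in wt/null, was -0.16 ± 0.13 (interval -0.45 to 0.13, adjusted p = 1.00 by edgeR), so a difference in antibody response between the genotypes was not shown. Without the 2 libraries that stand apart the averaged genotype estimate was 0.19 ± 0.08 (unadjusted p = 0.0281). Neutrophil markers summed to 44.0 CPM in null/null isotype replicate 1 and to 5.72 CPM or less in all other libraries; without that library the estimate under isotype antibody was 0.32 ± 0.10. The Adam8 group means were 263 ± 8.36 CPM in null/null anti-TNF, 240 ± 26.3 in wt/null anti-TNF, 338 ± 18.0 in null/null isotype and 276 ± 18.4 in wt/null isotype (SD, n = 3). Null/null isotype stood highest, without overlap with the next group down, wt/null isotype, and the ranges of the lower neighbours overlapped.

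**Figure D2:**
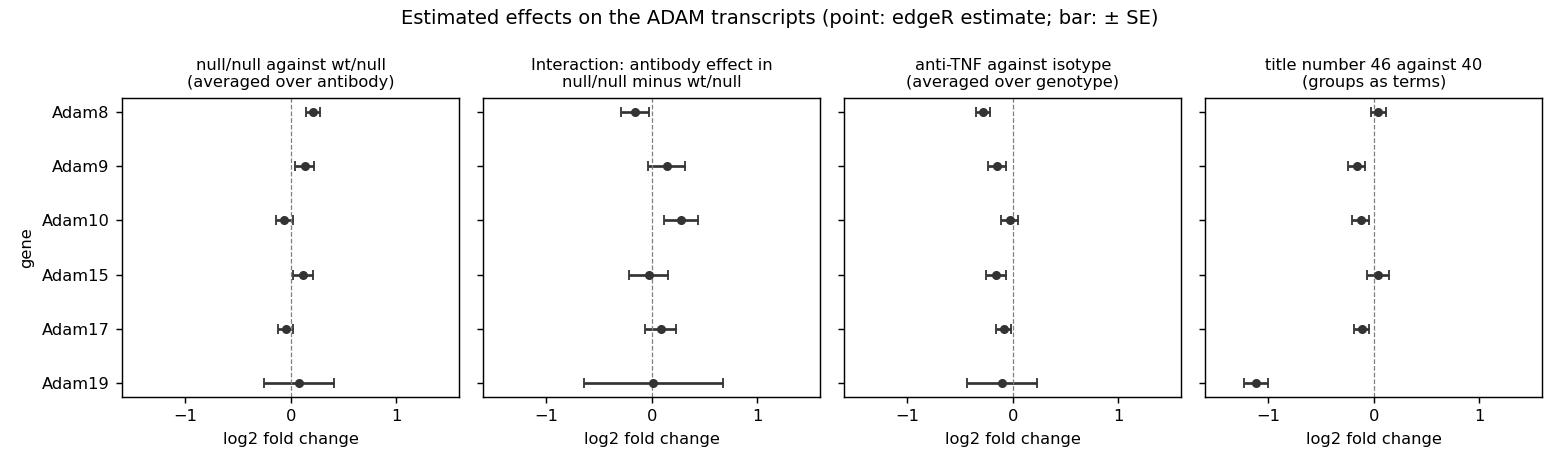
Log2 fold changes (horizontal axis) of the 6 ADAM genes (rows) for genotype, the interaction of genotype and antibody, the antibody and the title number; points are edgeR estimates and bars ± SE. Adam8 is at 0.21 ± 0.07 for genotype; the antibody and title number panels, where Adam8 is at -0.28 and Adam19 at -1.12, show contrasts that chose the genes and are a description.

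Adam19, whose product cuts neuregulins and is needed for heart development in mice, was lower in every library titled 46 than in every library titled 40. In null/null anti-TNF the library titled 46 had 88.8 CPM of Adam19, and those titled 40 had 167 and 201 CPM. In wt/null anti-TNF the values were 70.9 CPM with number 46, and 185 and 175 CPM with number 40. In null/null isotype they were 115 CPM with number 46, and 172 and 201 CPM with number 40. In wt/null isotype they were 73.2 CPM with number 46, and 201 and 191 CPM with number 40. The library titled 46 was thus at 48.3%, 39.4%, 61.9% and 37.4% of the mean of the libraries titled 40, with groups in the order just given. As every library titled 46 lay below every one titled 40, a lower value inside each group follows and repeats nothing. Over all libraries Adam19 averaged 87.1 ± 20.5 CPM in those titled 46 (SD, n = 4) and 187 ± 13.8 CPM in those titled 40 (SD, n = 8).

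With the 4 groups as terms, the log2 fold change of Adam19 for title number 46 against 40 was -1.12 ± 0.11 (SE), a level 53.9% lower. It was -1.14 ± 0.12 without the 2 libraries that stand apart and lay between -1.27 and -1.03 with 1 library left out in turn. Of the tested genes, 2 (0.0154%) were called in this contrast by edgeR at an adjusted p of 0.05, both lower in the libraries titled 46. Ranges did not overlap in that direction for 88 genes (0.678%), and 0.447% had a more negative estimate than Adam19. Adam19 was picked for this contrast, so nothing is read from these shares or from the refits. The other 5 members had smaller estimates: -0.16 ± 0.08 for Adam9, -0.12 ± 0.08 for Adam10, -0.12 ± 0.07 for Adam17, and 0.04 for both Adam8 (± 0.07) and Adam15 (± 0.10). Without the libraries that stand apart the Adam15 estimate was -0.06 ± 0.07. In the library titled 46, Adam9 and Adam10 were each below both libraries titled 40 in 3 of the 4 groups. The Adam9 estimate was -0.23 ± 0.06 without the libraries that stand apart.

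Other cells' markers also differed by title number, though not always in every group. The osteoclast-type markers summed to 1747 to 4009 CPM in libraries titled 46 and to 530 to 2615 CPM in those titled 40, and all 10 had higher estimates with number 46 (median log2 fold change 1.65, and 1.37 without the libraries that stand apart). In null/null isotype the order was reversed, with 1747 CPM with number 46, and 2255 and 2615 CPM with number 40. In each other group the library titled 46 had the highest sum. The 4 eosinophil and mast cell markers tested also all had higher estimates with number 46 (median 0.90, and 0.93 without those libraries), although their sums overlapped, at 15.5 to 21.9 CPM with number 46 and 9.28 to 27.6 CPM with number 40. Muscle markers summed to 78.8 to 92.7 CPM with number 46 and to 47.9 to 71.1 CPM with number 40, with 5 of 7 estimates higher (median 0.39). Fibroblast markers summed to 695 to 1110 CPM with number 46 and to 329 to 1755 CPM with number 40, with 6 of 6 estimates lower (median -0.23, and -0.47 without the libraries that stand apart). The part of these cells in the Adam19 difference was not tested.

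**Figure D3:**
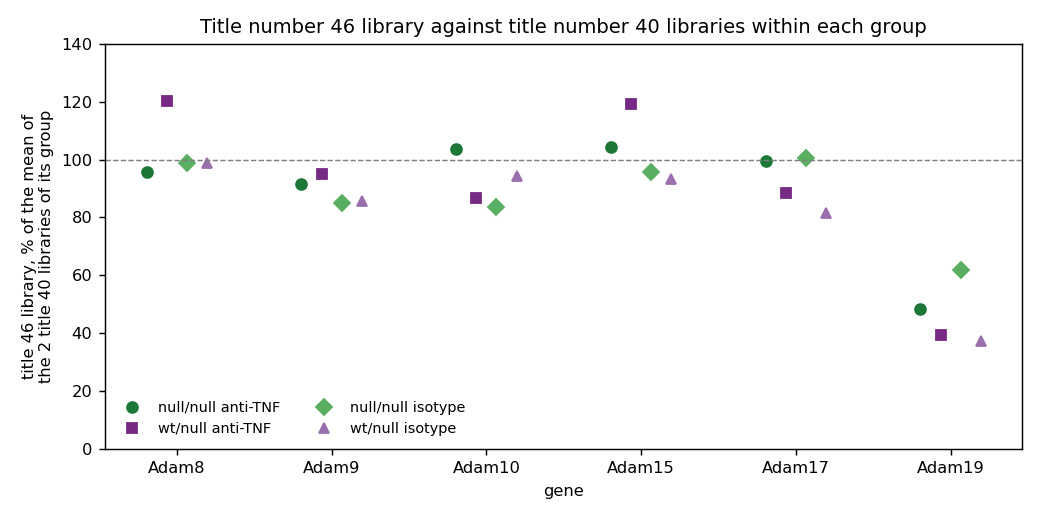
CPM of the library titled 46 as a percentage of the mean of the 2 libraries titled 40 in the same group (vertical axis), for each ADAM gene (horizontal axis) and group (symbols); the dashed line marks equal levels. The 4 Adam19 points lie between 37.4% and 61.9%, and the 20 points of the other genes lie between 81.4% and 120%.

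Neither genotype nor antibody separated Adam19. Its group means were 152 ± 57.4 CPM in null/null anti-TNF, 143 ± 63.0 in wt/null anti-TNF, 163 ± 43.5 in null/null isotype and 155 ± 71.0 in wt/null isotype (SD, n = 3), and all neighbouring ranges overlapped. The genotype estimate was 0.08 ± 0.33 (interval -0.66 to 0.81, adjusted p = 1.00 by edgeR). With title number as a block it was 0.15 ± 0.10 (interval -0.07 to 0.38, adjusted p = 1.00), again not called. The antibody estimate was -0.10 ± 0.33, or -0.13 ± 0.10 with the block.

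The sheddases Adam17 and Adam10, which release TNF and cut Notch among many substrates, were abundant and steady. Adam17 had 335, 365 and 348 CPM in null/null anti-TNF libraries, 380, 350 and 323 CPM in wt/null anti-TNF libraries, 366, 362 and 354 CPM in null/null isotype libraries, and 435, 383 and 333 CPM in wt/null isotype libraries. All 4 ranges of Adam17 overlapped. Its log2 fold change was -0.05 ± 0.07 for genotype (interval -0.21 to 0.11, adjusted p = 1.00 by edgeR) and -0.09 ± 0.07 for the antibody. As a change in level, the genotype interval of Adam17 ran from -13.3% to 8.09%.

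Adam10 had 227, 207 and 225 CPM in null/null anti-TNF libraries, 239, 196 and 188 CPM in wt/null anti-TNF libraries, 234, 180 and 197 CPM in null/null isotype libraries, and 243, 234 and 225 CPM in wt/null isotype libraries. The isotype group means differed in one direction between the genotypes, 204 ± 27.6 CPM in null/null and 234 ± 9.13 CPM in wt/null, and the anti-TNF means in the other, 220 ± 10.7 and 208 ± 27.6 CPM in the same order of genotypes. The ranges overlapped in both pairs. The genotype estimate of Adam10 was -0.20 ± 0.11 under isotype antibody (interval -0.45 to 0.05) and 0.08 ± 0.11 under anti-TNF (interval -0.17 to 0.33). The interaction was 0.28 ± 0.16 (interval -0.07 to 0.63, adjusted p = 1.00 by edgeR), so opposite responses were not shown.

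Adam9 and Adam15 encode proteases that also bind integrins through their disintegrin domains. Adam9 had 264, 279 and 249 CPM in null/null anti-TNF libraries, 270, 196 and 221 CPM in wt/null anti-TNF libraries, 306, 250 and 281 CPM in null/null isotype libraries, and 285, 276 and 240 CPM in wt/null isotype libraries. Its log2 fold change was 0.13 ± 0.09 for genotype (interval -0.06 to 0.32) and -0.15 ± 0.09 for the antibody. The lowest Adam9 value, 196 CPM, came from one of the libraries that stand apart, and the antibody estimate was -0.10 ± 0.09 without both.

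Adam15 was low in the 2 libraries that stand apart. They had 211 CPM (null/null anti-TNF replicate 1) and 205 CPM (wt/null anti-TNF replicate 2), and the other 10 libraries had 250 to 309 CPM. Its antibody log2 fold change was -0.16 ± 0.09 with all libraries and -0.04 ± 0.07 without those 2. Under isotype antibody Adam15 had 287, 285 and 309 CPM in null/null libraries and 263, 285 and 255 CPM in wt/null libraries, where the lowest null/null value was 285.3 and the highest wt/null value was 284.5, so the ranges missed each other by less than the counting error. The genotype estimate was 0.12 ± 0.09 averaged over antibody (interval -0.08 to 0.32).

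Across the 6 genes, 0 were called in any of the 4 tested comparisons (genotype averaged, under isotype antibody, under anti-TNF, and the interaction) by edgeR, and also 0 by DESeq2 and by limma voom. At an unadjusted p below 0.05 by edgeR, 1 of 6 (Adam8) passed for genotype averaged over antibody and 1 of 6 (again Adam8) under isotype antibody, and 0 passed under anti-TNF or for the interaction. Among all tested genes, 0.00770% were called in each of the 3 genotype comparisons, which was the single gene Ifngr1, and 0% in the interaction. At an unadjusted p below 0.05 the shares were 2.46% averaged over antibody, 1.80% under isotype antibody, 1.98% under anti-TNF and 1.51% for the interaction. Without overlap of the isotype groups, 2 of the 6 members (Adam8 and Adam15) were higher in null/null, against 4.31% of all tested genes. The Adam15 gap was smaller than the counting error. With scaling by relative log expression its ranges overlapped, with a lowest null/null value of 283.978 and a highest wt/null value of 284.404 CPM. Nothing is therefore read from this count. The averaged genotype estimates of the 6 ran from -0.06 to 0.21, with 4 above 0 and a median of 0.10, where all tested genes had a median of 0.0002.

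Members did not all vary together across the 12 libraries. Adam8 and Adam15 had a Pearson correlation of log2 CPM of 0.67 (Spearman 0.69), and 0.65 without the 2 libraries that stand apart. Adam17 and Adam19 correlated at 0.64 (Spearman 0.73) and Adam9 and Adam19 at 0.51 (Spearman 0.71), and without those 2 libraries the values were 0.75 and 0.89. Adam8 and Adam19 were close to unrelated, at 0.05 (Spearman 0.17). These values describe libraries that share title numbers, groups and scaling, and carry no p.

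Over the same 12 libraries the genes most like Adam8 among all tested genes were Galnt2, an enzyme that starts O-glycosylation (r = 0.92), the adaptor gene Sh2b2 (0.90), the RNA helicase gene Ddx54 (0.90), the endoplasmic reticulum chaperone gene Hyou1 (0.90) and the myosin chaperone gene Unc45a (0.89). Galnt2 ranged from 111 to 151 CPM and Hyou1 from 114 to 223 CPM. Most unlike it were Pnrc2 (r = -0.90), Fam134b, a receptor for autophagy of the endoplasmic reticulum (-0.89), and Ccni, Eif2a and Eif4b (each -0.86), the last a pair of translation initiation genes. Without the 2 libraries that stand apart the correlations of these 10 with Adam8 stayed between 0.87 and 0.93 or between -0.90 and -0.81.

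The genes most like Adam19 were Synrg, a partner of the AP-1 trafficking adaptor (r = 0.95), the ribonuclease gene Rnase4 (0.93), the kinase gene Eef2k (0.91), the adrenergic receptor gene Adra1a (0.90) and Ctla2b (0.90). Most unlike it were Dazap1 (-0.92), Supt3 (-0.90), Cd200 (-0.89), Igf2bp3 (-0.87) and Lmtk2 (-0.87). These pooled values carry the gap between title numbers: Rnase4 averaged 243 CPM in libraries titled 46 and 388 CPM in those titled 40. Within the 8 libraries titled 40 the correlation with Adam19 was 0.16 for Rnase4, 0.06 for Adra1a, 0.67 for Synrg and 0.68 for Eef2k, and Igf2bp3 changed sign to 0.41. Igf2bp3 averaged only 0.53 CPM over the 12 libraries and 0.23 CPM in those titled 40, so its correlations rest on few counts. Adra1a averaged 2.98 CPM over the 12.

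The rest of the family was scarce in these cells. Of 28 other ADAM and ADAM-like genes, 12 had 0 counts in every library, 22 averaged less than 1 CPM and 8 were tested, with 0 called in any comparison by edgeR and 0 of 8 at an unadjusted p below 0.05 for genotype or antibody. The highest by mean were Adam22, a family member without the catalytic site, at 8.97 to 13.2 CPM and Adam33 at 3.85 to 10.3 CPM. Of 19 genes of the secreted ADAMTS proteases, 11 were tested and 0 called. Adamts10, which acts on fibrillin microfibrils, averaged 34.6 CPM, and Adamts2, which trims procollagen, averaged 5.57 CPM.

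Genes that mature or guide ADAM10 and ADAM17, such as tetraspanins, iRhoms and the prohormone convertase Furin, were all measured (17 of 17 tested), and 0 passed the adjusted threshold in any comparison. Their genotype estimates were higher for 13 and lower for 4, with a median log2 fold change of 0.06 and 0 of 17 at an unadjusted p below 0.05. Their antibody estimates were higher for 5 and lower for 12, with a median of -0.08, against 48.4% lower and a median of 0.006 over all tested genes. Without the libraries that stand apart the antibody estimates were higher for 9 and lower for 8, with a median of 0.03. Cd9, a tetraspanin that binds ADAM17, averaged 579 ± 249 CPM in null/null anti-TNF, 551 ± 255 in wt/null anti-TNF, 724 ± 154 in null/null isotype and 659 ± 123 in wt/null isotype (SD, n = 3). Its antibody estimate was -0.29 ± 0.29, and the 2 libraries that stand apart held its lowest levels, 260 and 296 CPM; without them the estimate was 0.04 ± 0.13. The isomerase gene Pdia6 had estimates of 0.15 ± 0.08 for genotype and -0.15 ± 0.08 for the antibody. Rhbdf2, which encodes the iRhom that carries ADAM17 to the surface of myeloid cells, was added after its values were seen. It averaged 67.3 ± 6.82, 61.6 ± 7.89, 73.1 ± 10.3 and 62.7 ± 2.81 CPM in the same order of groups.

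All 5 inhibitors of metalloproteases were tested, with 0 called. Timp2, a secreted inhibitor, averaged 1145 CPM with a genotype estimate of 0.06 ± 0.15, and Timp1 averaged 4.51 CPM with an estimate of 0.34 ± 0.19. Timp3, the inhibitor that acts on ADAM17, was added after its values were seen as the 1 inhibitor with an unadjusted p below 0.05 for genotype (log2 fold change -0.51 ± 0.18, interval -0.91 to -0.11, adjusted p = 1.00 by edgeR). It averaged 3.65 ± 0.34 CPM in null/null anti-TNF, 4.26 ± 0.58 in wt/null anti-TNF, 2.95 ± 0.64 in null/null isotype and 5.14 ± 1.92 in wt/null isotype (SD, n = 3).

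Of 38 known ADAM substrates of myeloid cells, 35 were tested and 0 called in any comparison with all libraries. For genotype 20 estimates were higher and 15 lower (median 0.03), with 1 at an unadjusted p below 0.05. For the antibody 20 were higher and 15 lower (median 0.04), with 4 at an unadjusted p below 0.05. Without the libraries that stand apart 12 were higher and 23 lower for the antibody (median -0.05). For title number 46 against 40, 13 were higher and 22 lower (median -0.08). Of these 35, 5 had an unadjusted p below 0.05 by edgeR, against 1276 of all 12981 tested genes. Without the libraries that stand apart 18 were higher and 17 lower for title number (median 0.02), with 10 at an unadjusted p below 0.05 and 1 called. Cd74, the invariant chain of MHC class II, ranged from 6352 to 17848 CPM, and Csf1r, the receptor for macrophage colony-stimulating factor, from 3157 to 4061 CPM, with a genotype estimate of 0.03 ± 0.08. Tnf itself, the substrate of ADAM17 and the target of the antibody, was named after its values were seen. It had 42.1, 40.8 and 25.0 CPM in null/null anti-TNF libraries, 31.3, 105 and 24.1 CPM in wt/null anti-TNF libraries, 30.6, 34.3 and 24.0 CPM in null/null isotype libraries, and 22.8, 27.7 and 20.7 CPM in wt/null isotype libraries. The value of 105 CPM was from a library that stands apart, and the antibody estimate of Tnf was 0.73 ± 0.34 (unadjusted p = 0.0565) with all libraries and 0.19 ± 0.16 without both that stand apart.

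The 10 matrix metalloproteases tested, soluble or membrane-bound relatives with the same kind of zinc site, also gave 0 calls. Mmp14, a membrane-type collagenase, averaged 441 ± 37.9 CPM in null/null anti-TNF, 399 ± 46.4 in wt/null anti-TNF, 519 ± 56.0 in null/null isotype and 504 ± 13.6 in wt/null isotype (SD, n = 3). Its antibody log2 fold change of -0.29 ± 0.08 had an unadjusted p of 0.00322 and an adjusted p of 0.660; without the libraries that stand apart it was -0.22 ± 0.08. Mmp9, a gelatinase and one of the osteoclast-type markers, ranged from 6.80 to 1091 CPM, with its 2 lowest values in the libraries that stand apart.

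**Figure D4:**
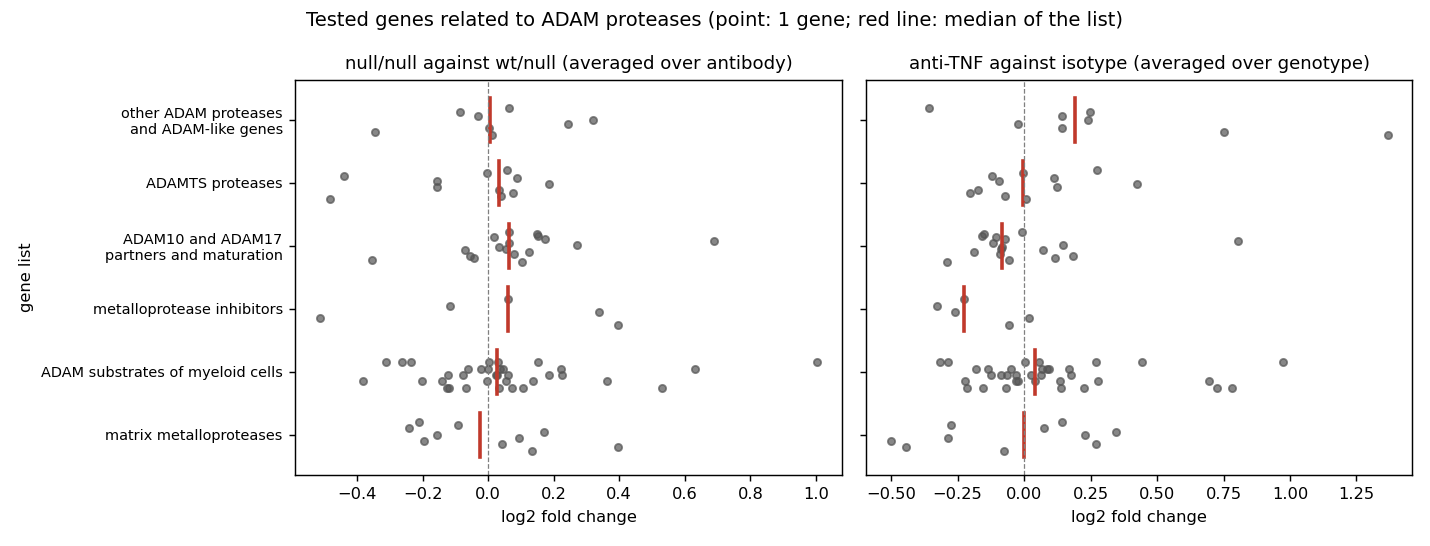
Log2 fold changes (horizontal axes) of the tested genes in 6 lists related to ADAM proteases (rows), for genotype and for the antibody; each point is 1 gene and each red line the median of its list. The medians lie close to 0 for genotype, and for the antibody that of the 17 partner and maturation genes is -0.08 and that of the 5 inhibitors -0.23, with 0 genes called; without the libraries that stand apart these antibody medians were 0.03 and -0.15.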

How the data were processed

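The deposited table holds whole-number counts per gene symbol for 12 libraries, not normalized, as the authors deposited it. Per the labels' protocols, libraries were made with a stranded mRNA kit and sequenced in pairs. The submitters' processing notes name bcl2fastq 2.20, STAR, Bowtie and the build mm10; the counting tool, strand setting and annotation are not given in the sources used here. Columns were matched to samples by title. Replicates were numbered in listing order, which pairs nothing.

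Counts were filtered with filterByExpr, scaled by TMM and modelled as 4 group means with the robust quasi-likelihood method of edgeR 4.0.16 (R 4.3.3), which was tested on simulated data. The title contrast added title number as a term. Calls used a Benjamini-Hochberg adjusted p of 0.05 over all 12981 genes, two-sided. Log2 CPM used a prior count of 2. Alternatives were DESeq2 1.42.0, limma 3.58.1 voom with quality weights, scaling by relative log expression, no filter or 1 CPM in 3 samples, title number as a block or as a restriction, fewer groups, and libraries left out; the block without both libraries that stand apart was chosen after seeing the data.

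Members and lists were chosen with earlier results of these data known. Named were the 6 members, list genes past the threshold or else the 2 highest by mean CPM, the leading marker genes, and the 5 most and least correlated genes of Adam8 and Adam19.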

Additional observations from a re-analysis of the deposited data

Results flagged for a closer look

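Adam9 was low in 1 of the 8 libraries titled 40. Wt/null anti-TNF replicate 2 had 195.7 CPM, and the nearest of the other 7 had 263.8 CPM, a gap of 0.616 of the range of the 8 values. This library is one of the pair that stand apart on the first principal component. In all, 36 sets of libraries were examined for single values far from the others (each member in sets of 4 to 8 libraries) and 1 was picked out, where chance alone picks out about 1 in 20.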

How the results depend on the processing

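Of 516 genotype and interaction estimates of the members under the alternatives, 478 kept their sign and 38 changed it, and 0 of the 38 were called. Of 504 antibody and title number estimates, which were not tested, 485 kept their sign and 19 changed it. Adam8 for the antibody and Adam19 for title number kept theirs under every alternative run. Both genes were picked for those contrasts in the same libraries, so nothing is read from the kept signs. Counts of genes called, with the value as reported last: for genotype averaged, 4 by DESeq2 and 1; for genotype under isotype antibody, 2 by DESeq2, 0 among libraries titled 40, and 1; for genotype under anti-TNF, 2 by DESeq2, 0 among libraries titled 40, 0 with only the groups compared, and 1. For the averaged antibody effect they were 2 by DESeq2, 1 among libraries titled 40, 1 with the title block and without both libraries that stand apart, and 0. For the antibody in null/null they were 1 with only the groups compared, and 0. For title number they were 146 by DESeq2, 122 by limma voom, 82 without both libraries that stand apart, 7 without group terms, and 2; leaving out 1 library gave 0 (wt/null isotype replicate 3 or wt/null anti-TNF replicate 3) to 86 (null/null isotype replicate 2). The cause was not tested.

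Genotype and interaction log2 fold changes that reversed under settings other than leaving out 1 library were, for Adam19, -0.012 by limma voom and -0.018 among libraries titled 40 for genotype averaged, -0.060 and -0.070 by the same 2 settings under isotype antibody, and -0.051 for the interaction with the title block. For Adam9 under isotype antibody limma voom gave -0.0100. For Adam10 under anti-TNF the libraries titled 40 gave -0.0025. For Adam17 under anti-TNF leaving out both libraries that stand apart gave 0.023, and 0.027 with the block. For the Adam15 interaction limma voom gave 0.013 and the libraries titled 40 gave 0.052. With 1 library left out, genotype and interaction ranges that crossed 0 were -0.096 to 0.0034 (Adam17) and -0.094 to 0.21 (Adam19) for genotype averaged, -0.019 to 0.14 (Adam9), -0.19 to 0.012 (Adam17) and -0.27 to 0.30 (Adam19) under isotype antibody, -0.014 to 0.24 (Adam15), -0.061 to 0.056 (Adam17) and -0.24 to 0.36 (Adam19) under anti-TNF, and -0.15 to 0.10 (Adam15), -0.016 to 0.18 (Adam17) and -0.31 to 0.36 (Adam19) for the interaction.

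Among the untested antibody estimates, Adam10 averaged over genotype gave 0.010 by limma voom and 0.0050 with the title block and without both libraries that stand apart, and that last setting gave 0.0069 for Adam17 in null/null. For title number, Adam15 gave -0.016 by limma voom and -0.059 without both libraries. With 1 library left out, their ranges that crossed 0 were -0.087 to 0.028 (Adam10) and -0.27 to 0.057 (Adam19) for the antibody averaged, -0.45 to 0.21 (Adam19) in wt/null, -0.35 to 0.18 (Adam19) in null/null, and -0.033 to 0.072 (Adam8) and -0.034 to 0.094 (Adam15) for title number.

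With 3 libraries a group, the tests resolve only effects larger than their intervals. No paired analysis was possible because replicate numbers were given in listing order and pair no libraries.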

Other observations

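Adam11, a family member without the catalytic zinc site that is best known from brain, was chosen after its values were seen. It had 16.4 CPM in null/null anti-TNF replicate 1 and 12.6 CPM in wt/null anti-TNF replicate 2, the 2 libraries that stand apart, and 1.63 to 3.32 CPM in the other 10. Its antibody log2 fold change was 1.37 ± 0.65 (SE; edgeR, unadjusted p = 0.0614) with all libraries and -0.16 ± 0.25 without those 2.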
